A study of Solanum lycopersicum with 12 samples.

Results

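CBF1 (LeCBF1) is the single gene of the cold-type CBF family that could be followed in the roots of AtHMA4-expressing tomato. Its probe set on the GeneChip Tomato Genome Array was found by searching the platform annotation for symbols or synonyms made of CBF and a digit, and it was 1 of 10101 probe sets tested. The gene had drawn attention in an earlier look at these arrays because its values in the stele of transgenic plants were far below those of the wild type. The gene was thus selected on its stele values, which are described here without a test.

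Expression was measured on 12 arrays, 3 for each of 4 groups. Transgenic tomato of var. Beta, homozygous line 4 (L4), expresses AtHMA4, a Zn-transporting ATPase of Arabidopsis, from the constitutive 35S promoter, and the comparison was with wild-type var. Beta (WT). From each genotype 2 root sectors were excised by laser microdissection, the epidermis with the cortex (EC) and the stele (S), from pooled root fragments. The paper describes cutting off the root tips for its RT-qPCR samples, and not in its main methods for the arrays. All plants received 5 μM Zn. The sample labels give an exposure of 15 days and plants aged 25 days, the methods of the study a shorter exposure, and neither mentions a cold treatment. A single transgenic line stands for the genotype, no probe set carries the symbol of AtHMA4, so that the transgene was not checked on the arrays, and nothing in the labels gives the time of day at harvest.

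CBF proteins (C-repeat binding factors, also called DREB1) are transcription factors with an AP2/ERF domain that bind the CRT/DRE element in promoters of genes protecting cells from cold and dehydration. In Arabidopsis their genes are switched on within hours of chilling by ICE1 and by calmodulin-binding CAMTA factors, follow the circadian clock and light, and are repressed by the ethylene-signalling factor EIN3. Tomato, a chilling-sensitive species, carries several CBF genes side by side, of which CBF1 is the one best known to respond to cold. In the RefSeq annotation of assembly SLM_r2.1, none of the 4 nearest protein-coding genes, 2 on each side of CBF1, has a name other than a locus number, and 0 of them have an annotated probe set here. Whether the CBF1 probes also bind transcripts of neighbouring copies was not tested.

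The log2 signal per probe set is given below as deposited. In the S, CBF1 had log2 values of 2.34, 2.09 and 2.12 in L4, against 8.03, 8.56 and 6.35 in the WT. Every L4 value lay below the lower quartile of its own array (2.37 to 2.54), and every WT value lay above the median of its array (3.72 to 4.02). On the L4 arrays 5.95% to 23.1% of all probe sets lay at or below CBF1, and on the WT arrays 66.3% to 77.1%. The means were 2.19 ± 0.14 in L4 and 7.65 ± 1.15 in the WT (SD, n = 3 each), a difference of -5.46 on the log2 scale (standard error 1.28, from the spread in both sectors). The L4 values sit at the bottom of the measuring range, so the size of this difference is uncertain, and fewer cells that express the gene cannot be told apart from less RNA per cell. All 3 L4 arrays lay below all 3 WT arrays, a separation fixed by the choice of the gene. Over the whole array 2.48% of probe sets were separated in this direction and 1.82% in the other.

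In the EC the L4 arrays were split. CBF1 had log2 values of 7.63, 2.54 and 2.22 in L4, against 7.70, 7.85 and 9.27 in the WT. Replicate 1 of L4 lay just under the lowest WT array, at the 71.4 percentile of its array, whereas the other L4 replicates were at the 15.6 and 13.2 percentiles, as low as in the S. The means were 4.13 ± 3.04 in L4 and 8.27 ± 0.86 in the WT (SD, n = 3 each). The difference of -4.14 (standard error 1.28) was not called by limma (adjusted p = 0.567), and it was the 15th lowest of all probe sets. This standard error takes its spread from both sectors, and so also from the S arrays that chose the gene. With only the 6 arrays of the EC the standard error was 1.6 (adjusted p = 0.774 from limma). All 3 L4 arrays were below all 3 WT arrays, though replicate 1 only narrowly. Such a separation was found in 6.31% of the probe sets, and the opposite one in 5.98%.

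**Figure D1:**
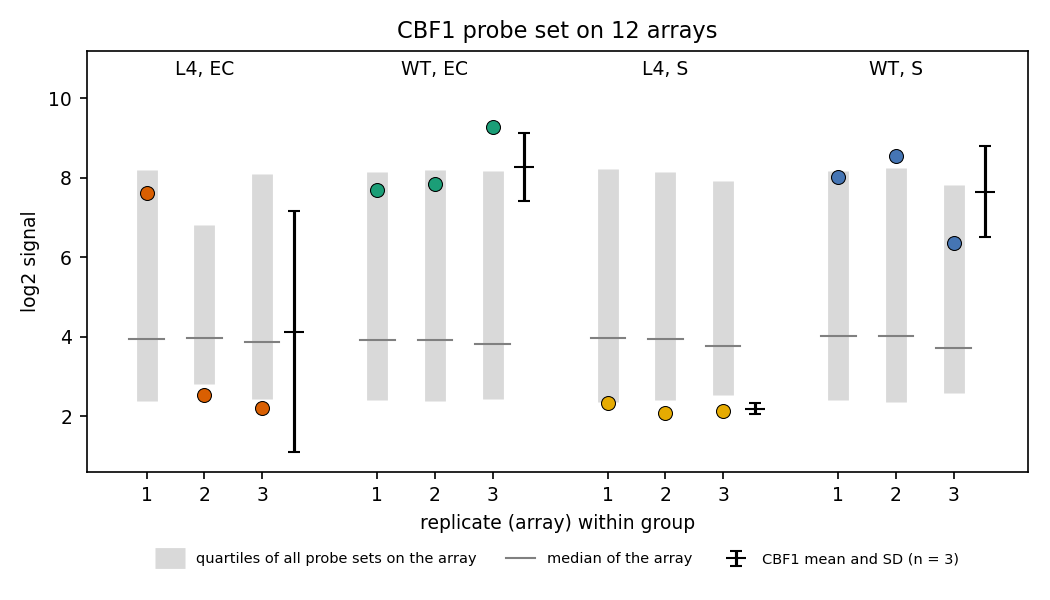
Log2 signal of CBF1 (points) on each of the 12 arrays by group and replicate, with the quartile range and the median of all probe sets on the array in grey and the mean ± SD of each group (n = 3) as a bar. The 3 L4 S arrays and L4 EC replicates 2 and 3 sit below the lower quartile of their array, while L4 EC replicate 1 (7.63) sits with the 6 WT arrays (6.35 to 9.27).

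The call in the EC turned on that array. Without L4 EC replicate 1 the difference was -5.89 (standard error 0.66, adjusted p = 0.0276 from limma), and limma then called 10 probe sets. The L4 EC arrays left in that fit are those near the bottom of the range. Its spread also comes from the S arrays that chose the gene, so the call is not an independent test. Without any other single array of the 12 it was not called (adjusted p = 0.377 to 0.928). Leaving out L4 EC replicate 2, on which the 27 spike-in controls averaged 13.9 on the log2 scale against 9.65 to 12.4 elsewhere, gave -3.35 (adjusted p = 0.750). That array also had the smallest SD over all probe sets, 3.04 against 3.32 to 3.48 on the others. The array with the high CBF1 value had an unremarkable spike-in mean of 9.81, and the largest excess of the 3' over the 5' actin control of all arrays, 10.45 on the log2 scale against 7.63 to 10.01 on the others. Its GAPDH excess was 10.1, against 10.97 on L4 EC replicate 2 and 7.74 on L4 EC replicate 3. The part of these array properties in the CBF1 values was not tested. When limma weighted the arrays, with weights whose estimation did not converge, CBF1 was called in the EC at -5.24 (adjusted p = 0.0084), as were 1467 probe sets in all. The weights of L4 EC replicates 1, 2 and 3 were 0.712, 0.0674 and 4.97, so the weighted L4 EC value rested mainly on replicate 3.

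**Figure D2:**
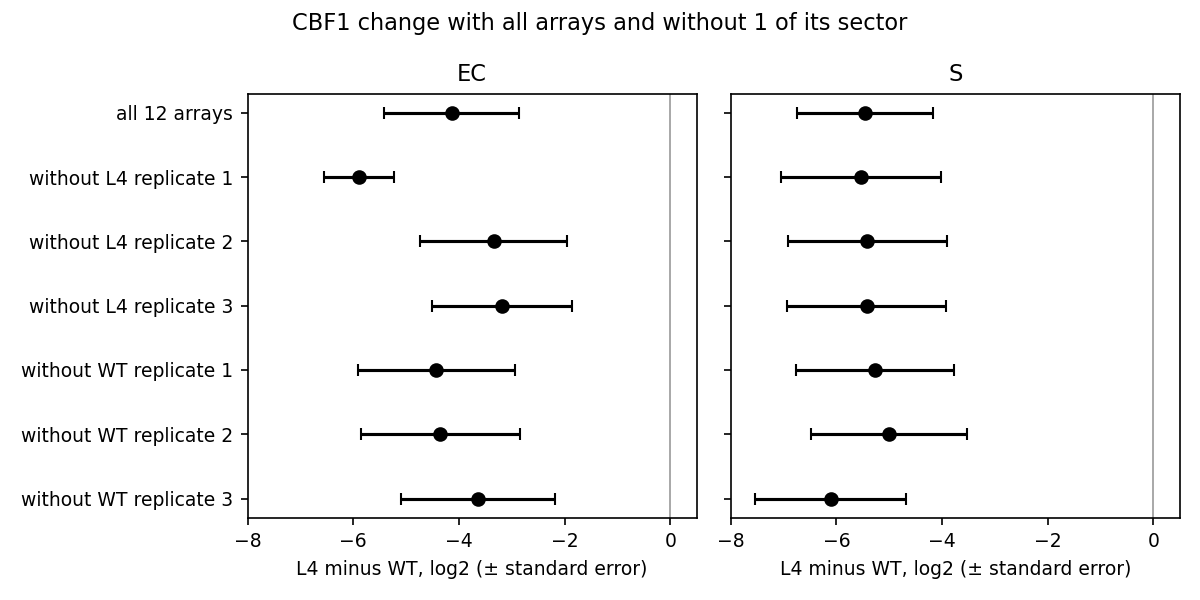
CBF1 difference of L4 minus WT (log2, horizontal axis, bars are standard errors of limma) in the EC (left) and the S (right), with all 12 arrays and without each array of that sector. The standard errors take their spread from the arrays of both sectors. The EC value ranged from -5.89 without L4 replicate 1 to -3.19 without L4 replicate 3, and the S value from -6.11 without WT replicate 3 to -5.0 without WT replicate 2.

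Ordered by its mean, CBF1 was lowest in the S of L4 (2.19), then in the EC of L4 (4.13), the S of the WT (7.65) and the EC of the WT (8.27). Each pair of neighbours in this order overlapped. The L4 EC range of 2.22 to 7.63 took in part of the L4 S range of 2.09 to 2.34 and part of the WT S range of 6.35 to 8.56, which in turn overlapped that of the WT EC, 7.70 to 9.27. The EC was set against the S of the same replicate number, although the labels do not say that a number marks 1 root pool. The EC exceeded the S in L4 by 5.29, 0.45 and 0.10 (mean 1.94 ± 2.90, SD, n = 3). In the WT the EC minus S differences were -0.33, -0.71 and 2.92 (mean 0.62 ± 1.99, SD, n = 3). Neither genotype thus showed a sector difference larger than the spread between its replicates. These values share the S arrays that chose the gene and were not tested. Without replicate 3 the WT mean was -0.52, and without replicate 1 that of L4 was 0.27.

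**Figure D3:**
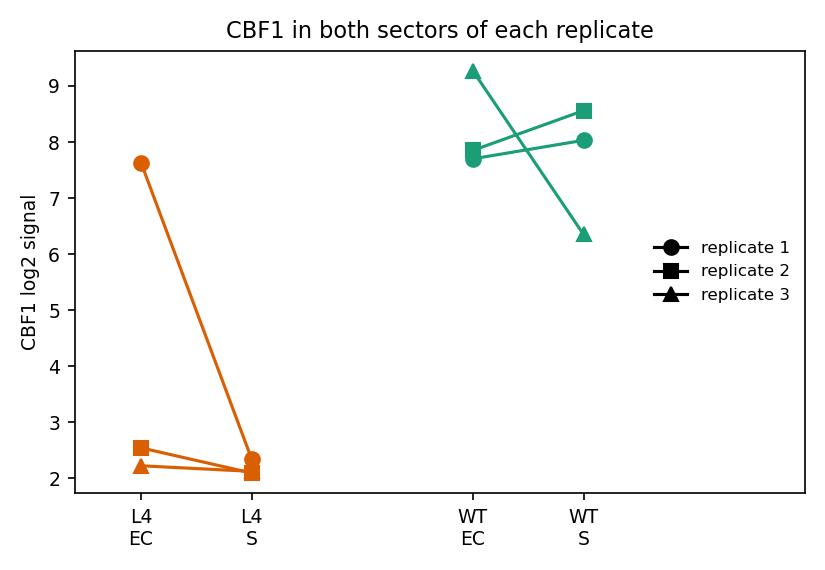
CBF1 log2 signal (vertical axis) in the EC and the S, joined for arrays of the same genotype and replicate number, L4 left and WT right. The line of L4 replicate 1 drops by 5.29 between its EC and its S, the other L4 lines stay at or below 2.54, and all WT lines stay at or above 6.35.

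Other transcripts also had L4 EC replicate 1 as their exception, though more had L4 S replicate 1. This count was made after the values of CBF1 had been seen and was shaped by them. In 35 probe sets all 6 L4 arrays were below all 6 WT arrays, and in 37 others, CBF1 among them, L4 EC replicate 1 alone was not. The corresponding counts with another L4 array as the exception were 12 for EC replicate 2, 10 for EC replicate 3, and 43, 14 and 21 for S replicates 1, 2 and 3. Of the 37, 7 have a symbol, among them EIL2, PTI6, tft10 and LOC543942, which appear again below. CBF1 and EIL2 are among the 37 only through WT S replicate 3 (6.35 and 10.64). On L4 EC replicate 1 they had 7.63 and 10.70, below all WT EC arrays. The value of tft10 there, 12.82, was level with its lowest WT value.

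The named genes whose values ran most like those of CBF1 over the 12 arrays were of mixed kinds. Likeness was measured as Pearson's r between log2 values, a description over 12 arrays that fall into 4 groups and may share root pools. It uses the S arrays that chose CBF1, so genes low in the S of L4 are favoured in advance. Of 908 probe sets with a symbol, the highest r was that of sus3, a sucrose synthase gene, at 0.922. Then came LOC543942 (0.897), EIL2, an EIN3-like factor of ethylene signalling (0.894), LOC778326 (0.883), XTH3 (0.852) and tXET-B2 (0.836), both of which encode xyloglucan-modifying enzymes, PTI6, an AP2/ERF factor first found by its binding to the Pto resistance kinase (0.835), tft10, a 14-3-3 protein gene (0.826), the ethylene response factor gene ERF2 (0.817) and the ethylene receptor gene ETR6 (0.817). Among all probe sets, 6 without a symbol had a higher r than sus3, and 65 reached at least 0.8, 12 of them with a symbol. By Spearman's rho, 3 of these 10 genes were still among the 10 most alike.

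These genes differed in what they did on L4 EC replicate 1. PTI6 behaved like CBF1 there, with log2 values of 7.80, 3.72 and 3.0 in the L4 EC, against 7.54, 6.39 and 7.83 in the WT EC. In the S it had 5.33, 5.78 and 5.67 in L4, against 7.37, 8.51 and 5.79 in the WT, so it stayed well above the bottom of the range where CBF1 did not. XTH3 had 10.03, 6.26 and 7.56 in the L4 EC, against 9.08, 9.72 and 9.19 in the WT EC, and tXET-B2 had 10.05, 5.88 and 6.36, against 8.48, 7.54 and 8.69. For both, L4 EC replicate 1 was above every WT EC array and the other L4 EC arrays were below them. ERF2 and ETR6 were instead low on every L4 array. ERF2 had 3.36, 3.75 and 2.48 in the L4 EC, against 6.33, 8.20 and 8.92 in the WT EC, and ETR6 had 3.69, 2.52 and 2.35, against 4.78, 6.14 and 5.78. sus3, one of the brightest probe sets, took a middle course with 12.67, 11.51 and 11.50 in the L4 EC, against 13.43, 13.60 and 13.84 in the WT EC. After the group means had been subtracted, r with CBF1 was 0.954 for PTI6, 0.914 for sus3, 0.895 for tXET-B2 and 0.831 for XTH3, but 0.420 for ETR6 and 0.358 for ERF2, and in these residuals L4 EC replicate 1 has most weight.

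Limma called none of these 10 genes in either sector. The smallest adjusted p-values were those of ERF2. Its difference in the EC was -4.62 (standard error 0.64, adjusted p = 0.139 from limma), and its difference in the S was -4.34 (standard error 0.64, adjusted p = 0.346). For sus3 the difference in the EC was -1.73 (standard error 0.31, adjusted p = 0.317).

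**Figure D4:**
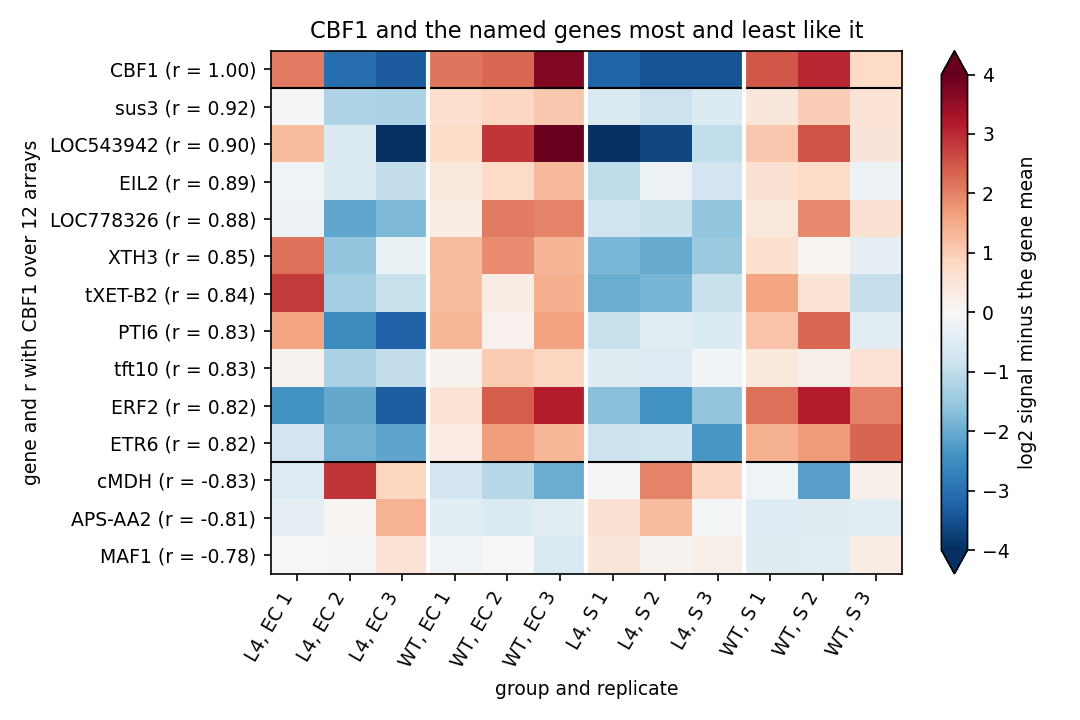
Heat map of CBF1 (top row), the 10 named genes most like it and the 3 least like it, on the 12 arrays ordered L4 EC, WT EC, L4 S, WT S. Colour is the log2 signal minus the mean of the gene over all arrays (blue lower, red higher), and r with CBF1 stands beside each symbol. The r values use the S arrays that chose CBF1. The first column, L4 EC replicate 1, is red or pale for CBF1, PTI6, XTH3 and tXET-B2 and blue for ERF2 and ETR6.

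At the other end, the named probe sets least like CBF1 were cMDH, a malate dehydrogenase gene (r = -0.829), a probe set of APS-AA2 (-0.812) and one of MAF1 (-0.778). cMDH had log2 values of 3.51, 6.88 and 4.88 in the L4 EC, against 3.27, 2.89 and 2.03 in the WT EC, with its lowest L4 value on the array where CBF1 was high. The difference was 2.36 (standard error 0.93), and limma did not call it (adjusted p = 0.641). Brighter probe sets of APS-AA2 and MAF1, with EC differences of 1.17 and -0.67, were not among the least alike.

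Other genes of the pathways around CBF1 were described as lists, 52 genes in all with the AP2/ERF factors. Limma called 0 of them, and 0 of all probe sets (0%), in either sector. A looser threshold, p under 0.05 before adjustment and a change of 1.2-fold or more, was used to count members. In the EC 7.09% of all probe sets passed it, 4.83% lower and 2.26% higher in L4. In the S 2.49% passed, 1.32% lower and 1.18% higher. Negative differences made up 39.3% of the array for the EC (median 0.08) and 52.0% for the S (median -0.01). Of the 10101 probe sets, 5017 had a mean log2 value under 4, where a decrease could hardly be seen. These shares are therefore not matched in signal to lists of mostly brighter genes.

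Of the factors that act upstream of CBF genes in Arabidopsis, limma called none in L4 against the WT. ICE1 has no annotated probe set here. The list held ER66, a CAMTA-type calmodulin-binding factor, and the EIN3-like factors EIL1 to EIL4. All 5 had negative differences in both sectors (EC median -1.39, S median -0.54). In the EC 4 passed the unadjusted threshold, namely EIL2 (-1.39), EIL4 (-2.60), EIL3 (-1.93) and ER66 (-1.37), and in the S 1 did, EIL2 (-1.06). ER66 had 8.83, 8.16 and 7.0 in the L4 EC, against 8.66, 9.48 and 9.93 in the WT EC, while in the S its difference was -0.14. EIL2 had 10.70, 10.28 and 9.89 in the L4 EC, against 11.27, 11.62 and 12.16 in the WT EC, and lay below the WT in all 6 L4 arrays when each is set against its own sector. The ethylene genes were known to be low in L4 when this list was made, so the direction of the EIL factors is not independent evidence.

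Of 14 other AP2/ERF factors, the family that CBF1 belongs to, 8 had a negative difference in the EC (median of the list -0.49), and 11 had one in the S (median -0.47). In the EC 3 were lower at the unadjusted threshold, ERF2 (-4.62), JERF3 (-1.45) and JERF1 (-1.10), and in the S 1 was, ERF2 (-4.34), with none higher. JERF1 had its lowest value of all arrays, 10.05, on L4 EC replicate 2, whereas ERF2 and JERF3 did not. Of CBF1 and these 14 genes, only CBF1 and ERF2 had differences below -4 on the log2 scale in both sectors. For CBF1 the low value in the S came with the choice of the gene, so this does not rank it within the family. PTI6 followed with -2.41 in the EC and LOC606712 with -2.20, neither past the threshold. The factors nearest to CBF1 by name, DREB1, DREB2 and DREB3, gave little signal. Their means over the 12 arrays were 2.06, 2.88 and 2.0, and their differences lay between -0.37 and 0.29 in both sectors. Of the 14 factors, 6 had a mean log2 value under 4, so that a decrease in them could hardly be seen.

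Genes of cold and dehydration protection, the kind that CBF factors activate, were split in direction. Of 11 such genes, 5 had a negative and 6 a positive difference in the EC (median 0.07). In the S 4 were negative and 7 positive (median 0.05). At the unadjusted threshold 1 was lower in the EC, NP24-I, an osmotin-like protein gene (-1.27, standard error 0.52), and 0 passed in the S. The dehydrin gene TAS14 had values of 5.99, 9.13 and 6.93 in the L4 EC, against 8.58, 4.36 and 4.12 in the WT EC, a difference of 1.67 with a standard error of 1.65. In the S it had 6.65, 7.09 and 7.72 in L4, against 7.99, 1.83 and 5.48 in the WT (difference 2.05, standard error 1.65). The groups overlapped in both sectors, replicate 1 of the WT being the high one, and r with CBF1 over the 12 arrays was -0.545. LEA14, a late embryogenesis abundant protein gene, had a difference of -0.90 in the EC (-0.78 in the S), and PRO2, a gene of proline synthesis, one of -1.47 in the EC, neither of them past the threshold. In this list 5 genes, among them the galactinol synthase gene GolS-1 and the fatty acid desaturase gene Fad7, had a mean log2 value under 4.

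The lipid transfer protein genes LE16 and TSW12 stood out on L4 EC replicate 1. LE16 had 6.41, 3.40 and 2.66 in the L4 EC, against 2.61 to 2.90 on all 6 WT arrays. TSW12, singled out after its values had been seen, had 8.58, 2.24 and 2.05 in the L4 EC and 2.07, 2.07 and 3.85 in the L4 S, against 2.0 to 2.21 on the WT arrays. Both were thus highest on L4 EC replicate 1, where CBF1 was at the WT level, but neither was raised in the WT, where CBF1 was high throughout. Limma called neither in either sector.

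**Figure D5:**
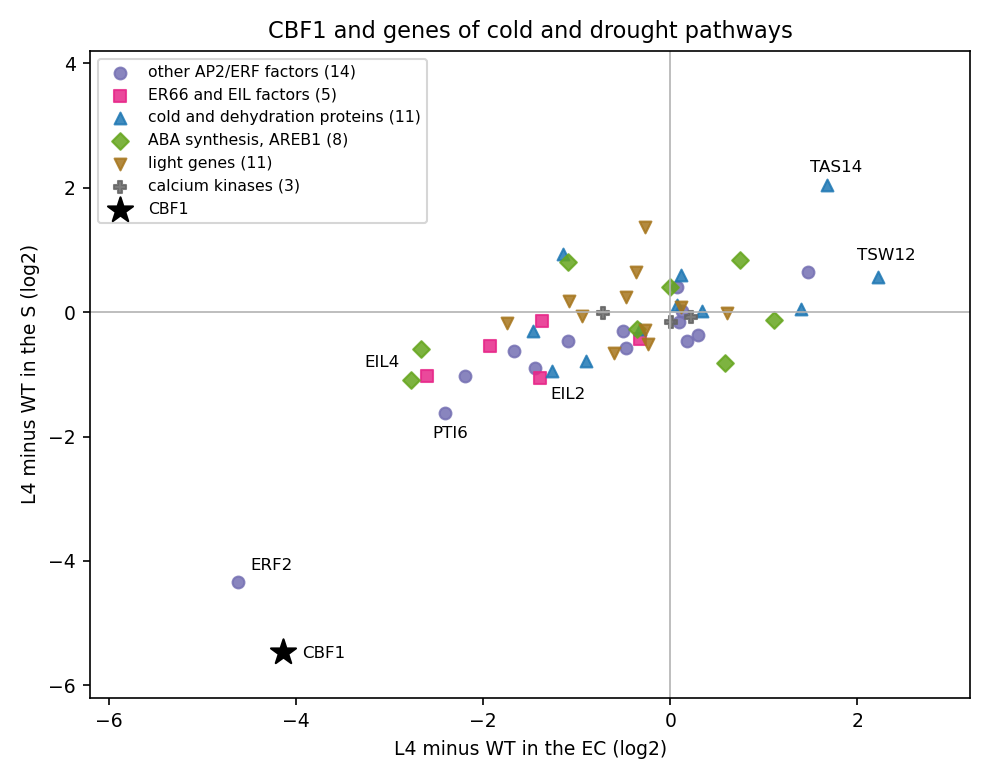
Difference of L4 minus WT in the EC (horizontal) and in the S (vertical), both log2, for CBF1 (star) and the 52 genes of the 6 lists, with the number of genes in brackets. CBF1 (-4.14 and -5.46) and ERF2 (-4.62 and -4.34) stand apart at the lower left, and the other genes lie within 3 of 0 on both axes. CBF1 was chosen for its low values in the S of L4. The lists were made with earlier results of these data known, among them that ethylene genes were low in L4.

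Among hormone, calcium and light genes 1 passed the looser threshold. Of 8 genes of abscisic acid synthesis and response, which leads to dehydration protection by a route separate from CBF factors, 4 had a negative difference in the EC (median -0.18), and 5 had one in the S (median -0.20). The aldehyde oxidase gene TAO2 was higher in the EC at the unadjusted threshold (1.11, standard error 0.28, adjusted p = 0.501 from limma), with all 3 L4 arrays above the WT, and 0 genes passed in the S. The neoxanthin synthase gene NSY (-2.67) and the aldehyde oxidase gene TAO3 (-2.77) had larger differences in the EC, which rested on very low values of 2.31 and 3.03 on L4 EC replicate 2. NCED1, the key enzyme of abscisic acid synthesis, had 6.23, 2.95 and 3.02 in the L4 EC, against 4.93, 2.48 and 3.03 in the WT EC. Of the calcium-responsive kinases, cpk1 was at -0.72, SOS2 at 0.22 and CDPK1 at 0.01 in the EC, and none passed. Of 11 genes of light perception and signalling, 9 had a negative difference in the EC (median -0.37), 6 had one in the S (median -0.02), and 0 passed the unadjusted threshold in either sector. The largest of them in the EC was COP1, a ubiquitin ligase of light signalling (difference -1.75, standard error 1.19). It had 7.44, 2.86 and 4.90 in L4, against 6.43, 6.45 and 7.57 in the WT. COP1, CRY1A (2.66), HY5 (4.63), PHYA (8.82), CUL4 (5.2), DET1 (3.5) and Cry1b (3.17) had their lowest value of all arrays on L4 EC replicate 2. CRY2 and DDB1, also negative in the EC, did not. On the other L4 EC arrays CRY1A had 9.85 and 8.55, against 8.96, 6.25 and 6.65 in the WT EC. The count of 9 thus leaned on L4 EC replicate 2, and a shared decrease of the light genes was not tested.

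The markers of the sectors gave a mixed picture. Of 7 EC markers, 3 had a negative and 4 a positive difference in the EC (median 0.07), and limma called none. The phosphate transporter genes PT1 (-1.75) and PT2 (-1.52) were lower in L4 at the unadjusted threshold. The others, exp18 (-0.52), FRO1 (0.07), ext1 (0.47), Dif54 (0.93) and the expansin gene EXPA8 (1.70), did not pass it. PT2 had 2.21, 2.42 and 2.19 in the L4 EC, against 2.86, 3.65 and 4.86 in the WT EC. On the 6 S arrays it had 2.11 to 2.32, all near the bottom of the range. EXPA8 had 6.94, 3.21 and 9.23 in the L4 EC, against 2.92, 8.32 and 3.04 in the WT EC. In the S it had 3.36, 3.34 and 2.88 in L4, against 4.12, 3.05 and 6.88 in the WT, so EXPA8 was higher on L4 EC replicates 1 and 3 than on any L4 S array. The ferric reductase gene FRO1 lay between 1.95 and 2.42 on all 12 arrays and marked neither sector. Of 3 S markers, sus3 had lower values in L4 in both sectors at the unadjusted threshold, and SUT2 and SUT4 did not pass it. None of these 3 had a higher mean in the WT S than in the WT EC. The EC and S means of the WT were 13.62 and 13.42 for sus3, 6.77 and 6.13 for SUT2, and 3.03 and 2.74 for SUT4. The EC marker exp18 had a higher mean in the S in both genotypes, whereas PT1 (7.06 and 5.33) and PT2 (3.79 and 2.23) were higher in the WT EC. Of 4 genes of dividing cells 0 passed. All 4 had their lowest value of all arrays on WT EC replicate 3. These values were 2.45 for CycA1, 3.40 for CycA2, 4.92 for CYCD3 and 3.49 for CDKB1. CBF1 had its highest value, 9.27, on the same array. The part of the sampled tissue in the CBF1 values was not tested.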

How the data were processed

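The authors amplified RNA of laser-captured tissue, hybridised it to 12 arrays and deposited log2 values per probe set, for which the labels name the GeneChip Command Console software. Their summarisation and normalization, not given in the sources used here, are unknown. None of the 12 columns was left out. Of 10209 probe sets, 108 AFFX controls were left out, 63 reporter probe sets stayed in, and 10101 were tested without a filter. A symbol was known for 909 of them, 885 of which were matched to RefSeq by gene identifier. In the lists the brightest probe set stood for a gene, whereas likeness was taken over all probe sets with a symbol. In the EC the dimmer ones of ERF3 and CRY1A had differences of 0.41 and 1.13, opposite to those given.

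Differences came from limma 3.58.1 in R 4.3.3 (lmFit, eBayes) on all 12 arrays with 4 group means and 8 residual degrees of freedom. A probe set was called at a Benjamini-Hochberg adjusted p under 0.05 over all probe sets with a change of at least 1.2-fold. Fits were tested on simulated data in which each probe set had the same spread on every array. That test does not cover arrays of unequal quality. Likeness was Pearson's r. The number of arrays limits the precision, and p-values measure only the spread between these arrays. The named genes were CBF1, the 10 most and 3 least like it, up to 4 of each list with the smallest p in each sector, and the markers. TSW12, LOC606712, GolS-1, PHYA, DDB1, ERF3 and the DREB genes were named after their values were seen. Members and lists were chosen with earlier results of these data known, and list members once the annotation had been read. For sector differences, arrays of the same genotype and number were set against each other. Nothing in the titles says that they share a root pool, and their deviations from group means correlated at -0.266 to 0.634, so the numbers were not shown to pair them. The alternatives were the replicate block, the arrays of 1 sector, a random block, 2 normalizations, a signal filter, other eBayes options, array weights and each array left out. Figures were drawn with matplotlib 3.10.9.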

Additional observations from a re-analysis of the deposited data

How the results depend on the processing

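The difference of CBF1 in the EC kept its direction under 20 alternatives and stayed uncalled under 18. Array weights gave -5.24 (adjusted p = 0.0084), and single arrays left out gave -5.89 to -3.19 (adjusted p = 0.0276 to 0.928), with a call only without L4 EC replicate 1. In the S it was -6.11 to -5.0 without single arrays. EC minus S of the WT was -0.52 to 1.29 without 1 replicate and changed sign without replicate 3, and that of L4 was 0.27 to 2.87. The count of probe sets called, 0 in each sector, depended on the setting. In the EC it was 1 with the 6 arrays of the sector alone, 1467 with array weights, 0 to 10 without single arrays and 716 at an unadjusted p under 0.05. In the S it was 2 with array weights, 0 to 3 without single arrays and 252 at an unadjusted p under 0.05. Of the 10 named probe sets most like CBF1, 3 were shared with the 10 by Spearman's rho and 6 to 10 without single arrays. With the replicate block, CBF1 in the EC was at -4.14 (adjusted p = 0.516) and 0 probe sets were called in each sector. Same-numbered arrays of one sector in L4 and the WT correlated in their deviations from group means at -0.103 to 0.38, so the numbers were not taken to pair the genotypes. Values near 2 on the log2 scale are at the bottom of the range, where a lower level cannot be seen.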
